A study of Mus musculus and Homo sapiens with 28 samples.

Results

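Dendritic cells are a small leukocyte population in a tumour, and 10 genes used to mark them or their subsets were followed here in mouse renal tumours: Clec9a, Batf3, Itgax, Itgae, Flt3, Zbtb46, Irf8, Siglech, Cd209a and Fscn1. The genes were taken by name from the mouse expression table, in which all 10 had a row among 46078 rows and all 10 passed the filter that 15916 rows passed. The tumours were grown from Renca, a mouse renal carcinoma line, injected in Matrigel under the skin of the back. They were labelled SETD2 KD or WT, SETD2 being a histone methyltransferase of transcribed gene bodies that is often lost in human renal carcinoma. Once palpable, tumours were treated with VE822, an inhibitor of the DNA damage kinase ATR, by gavage (60 mg/kg, 5 days each week), or left untreated. The groups were SETD2 KD VE822 (n = 5), SETD2 KD untreated (n = 6), WT VE822 (n = 6) and WT untreated (n = 7), 24 libraries in all. The labels do not state the host strain, its age or how the knockdown was made, and all groups share the injected line and the Matrigel.

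Dendritic cells take up antigen, carry it to lymph nodes and present it to T cells. Conventional dendritic cells grow under FLT3 signalling and fall into a cross-presenting kind, cDC1, which depends on BATF3 and IRF8 and primes CD8 T cells, and a second kind, cDC2, which presents mainly to CD4 T cells. Plasmacytoid dendritic cells are a further kind, known for making type I interferon. Several of the genes are shared with other cells: Itgax and Irf8 are also expressed by macrophages, Itgae by tissue-resident T cells, Zbtb46 by endothelium and Fscn1 by many motile cells, tumour cells among them.

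Sequence around RefSeq start sites is shown for 3 members whose promoter window held a motif of the factor families that act in dendritic cells. RefSeq promoter windows (GRCm38.p6, 250 bases before to 50 after the start) were matched for 9 of the 10 genes (all but Itgae). Both strands were searched for GGAANNGAA, the composite site of ETS factors with IRF4 or IRF8, for GAAANNGAA, the core of the interferon response element, and for TGANTCA, the AP-1 site to which BATF-JUN pairs also bind. At least 1 of these was found in 4 of the 9 genes, and in 22.2% of all 32851 windows. By motif, the shares of all windows were 8.24%, 8.56% and 7.81% in the order named. Those of Clec9a, Zbtb46 and Itgax are written 5′ to 3′ on the strand of the gene, with the matches in capitals. They lie at chr6:129408612-129408911 (plus strand) for Clec9a, chr2:181424339-181424638 (minus) for Zbtb46 and chr7:128129300-128129599 (plus) for Itgax. The Zbtb46 window lies at a start inside the gene body, which runs over chr2:181387762-181459426.
Clec9a: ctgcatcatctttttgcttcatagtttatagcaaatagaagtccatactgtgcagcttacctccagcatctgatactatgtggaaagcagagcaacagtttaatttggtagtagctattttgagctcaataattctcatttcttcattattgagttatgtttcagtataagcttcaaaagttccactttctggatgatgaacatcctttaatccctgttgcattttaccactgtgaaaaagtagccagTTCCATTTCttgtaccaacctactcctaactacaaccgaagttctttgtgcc
Zbtb46: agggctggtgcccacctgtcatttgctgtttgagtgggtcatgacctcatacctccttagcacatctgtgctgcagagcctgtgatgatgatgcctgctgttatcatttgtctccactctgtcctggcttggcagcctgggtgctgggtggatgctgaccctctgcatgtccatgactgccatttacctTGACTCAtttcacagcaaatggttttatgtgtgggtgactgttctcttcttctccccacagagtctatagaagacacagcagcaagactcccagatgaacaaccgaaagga
Itgax: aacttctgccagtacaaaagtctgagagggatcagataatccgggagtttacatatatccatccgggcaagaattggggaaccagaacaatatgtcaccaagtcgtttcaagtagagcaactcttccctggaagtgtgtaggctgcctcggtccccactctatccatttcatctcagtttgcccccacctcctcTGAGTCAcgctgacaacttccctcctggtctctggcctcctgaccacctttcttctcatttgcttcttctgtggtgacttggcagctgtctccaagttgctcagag
The Clec9a window held GAAANNGAA on the opposite strand, its match beginning 2 bases before the start. The windows of Itgax and Zbtb46 held TGANTCA at 56 and 61 bases before the start, and that of Cd209a held GGAANNGAA at 152 and, on the opposite strand, at 8 bases before it. No 2 of these matches overlapped. The E-box CANNTG, also searched, was in 8 of the 9 genes and in 72.3% of all windows. A match describes letters only, and no binding was measured.

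Values are the deposited rlog, a regularised log2 count that is pulled towards the gene's mean where counts are low. Levels are not per length, so they are compared between libraries and not between genes. Clec9a and Siglech, with mean rlog of 3.32 and 3.21, lay just above the filter of 3, while Fscn1, Irf8 and Itgax averaged 11.53, 10.39 and 9.42. The depth of the libraries is unknown. Setd2 itself was at 10.81 ± 0.07 in SETD2 KD untreated and 10.83 ± 0.07 in WT untreated libraries (SD), so the genotype label was not seen in this gene's level in untreated tumours. With VE822 it was 9.72 ± 0.21 in SETD2 KD and 10.03 ± 0.29 in WT libraries (adjusted p = 0.225 between these), a log2 difference from untreated of -1.09 and -0.80 (adjusted p = 1.08e-07 and 1.18e-06). The groups are called by their labels. The labelled tissue is kidney although the tumours were subcutaneous, and the renal epithelial genes Krt8 and Krt18 were above 13 in every group mean. Libraries WT VE822 1, 2 and 4 and WT untreated 4 were high in skeletal muscle genes. Libraries SETD2 KD VE822 4, WT VE822 4 and 5 and WT untreated 1 were high in endothelial genes, and these hold many of the highest dendritic cell gene values. In this annotation, exons of Clec9a overlap those of Clec1b on the same strand, and the bodies of Itgae, Flt3, Zbtb46 and Irf8 contain or overlap other genes (Haspin, Gm26597, Gm22708 and Gm20388). The sources used here do not tell how shared reads were assigned, and the values of these genes are uncertain to that extent. Clec1b had group means between -0.57 and -0.55 rlog, far below the filter.

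About as many of the dendritic cell genes rose with VE822 as did not pass, under each genotype label. In SETD2 KD tumours 6 of the 10 genes rose (Clec9a, Batf3, Itgax, Itgae, Flt3 and Irf8) and none fell, where 10.6% of all genes tested rose and 11.6% fell. In WT tumours 5 of the 10 rose (Clec9a, Itgax, Itgae, Flt3 and Siglech) and none fell, where 17.2% of all genes rose and 17.5% fell. With 1 library left out these counts ran from 3 to 6 in SETD2 KD and from 2 to 7 in WT. With muscle and fibroblast covariates they were 3 and 1. Of the members, 4 (Clec9a, Itgax, Itgae and Flt3) rose under both labels, as did 7.84% of all genes. The median log2 difference of the 10 genes was 0.43 in SETD2 KD and 0.43 in WT, beside 0.0052 and 0.011 over all genes tested. Calls are by limma with Benjamini-Hochberg adjustment over all 15916 genes at 0.05. In bulk tumours, more or fewer cells of a type and more or less RNA per cell cannot be told apart.

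**Figure D1:**
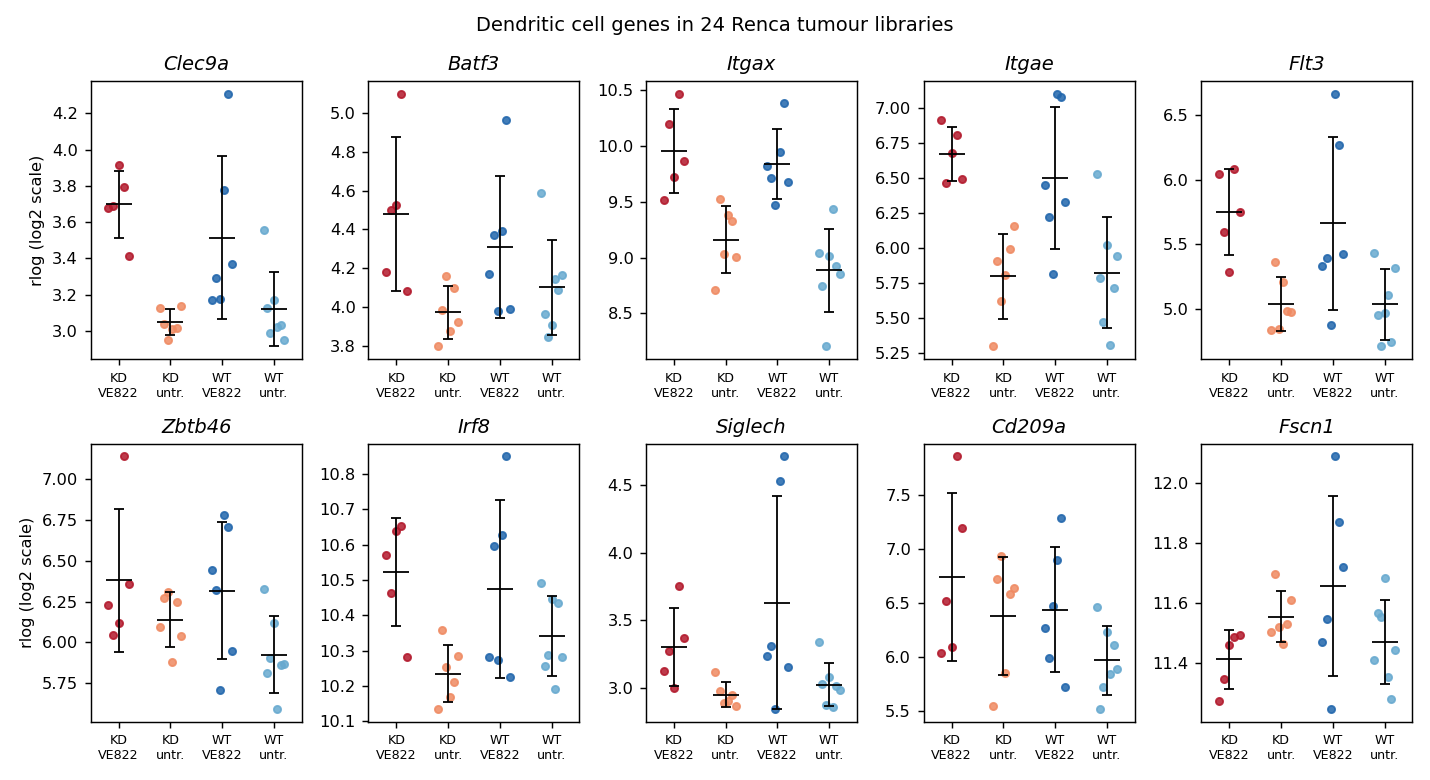
Deposited rlog (log2 scale) of the 10 dendritic cell genes in each of the 24 libraries, by group (KD, SETD2 KD; untr., untreated), with the group mean and SD in black. In Itgax the 6 WT VE822 libraries, from 9.47 to 10.39, all sit above the 7 WT untreated libraries, from 8.20 to 9.43, whereas in Siglech 2 of the WT VE822 libraries stand far above the rest.

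Flt3 encodes the receptor tyrosine kinase through which FLT3 ligand expands dendritic cells. Its rlog was 6.04, 5.59, 5.28, 6.08 and 5.75 in the SETD2 KD VE822 libraries, against a lowest, median and highest value of 4.84, 4.98 and 5.37 in SETD2 KD untreated libraries. All but the lowest treated library lay above the highest untreated one. In WT tumours it was 4.88, 5.41 and 6.66 with VE822 and 4.71, 4.97 and 5.43 untreated (lowest, median, highest). Only WT VE822 replicates 4 and 5, at 6.66 and 6.27, lay clearly above the untreated range. The log2 difference was 0.71 ± 0.23 (SE; adjusted p = 0.0275) in SETD2 KD and 0.62 ± 0.21 (adjusted p = 0.0249) in WT. The SETD2 KD call was lost without SETD2 KD VE822 replicate 1, 4 or 5 or SETD2 KD untreated replicate 1 or 3, with adjusted p from 0.0176 to 0.0668 over the 11 libraries left out in turn. It was also lost after quantile normalisation (0.58, adjusted p = 0.0532) and with muscle and fibroblast covariates (0.37, adjusted p = 0.221), the lowest over such alternatives being 0.00274. The WT call was lost without WT VE822 replicate 4 or 5 or WT untreated replicate 3 (0.00502 to 0.0823 over 13), and without the libraries high in endothelial genes the WT difference was 0.29 (adjusted p = 0.142, from 0.00366 to 0.368 over the other alternatives). That call was also lost with only the groups compared (adjusted p = 0.0589) and after quantile normalisation (0.0757). Leaving out the libraries high in muscle genes (0.159) or adding muscle and fibroblast covariates (0.368) lost it too.

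Batf3, Irf8 and Zbtb46 encode transcription factors. BATF3 and IRF8 maintain cDC1, and ZBTB46 marks the conventional lineage. Batf3 had rlog values of 4.18, 4.50, 4.53, 5.10 and 4.08 in SETD2 KD VE822 libraries, against 3.80, 3.95 and 4.16 in SETD2 KD untreated libraries (lowest, median, highest). Only 1 treated library, replicate 5, fell within the untreated range. In WT libraries it was 3.98, 4.27 and 4.96 with VE822 and 3.84, 4.09 and 4.59 untreated, ranges that largely overlap. The difference was 0.51 ± 0.17 in SETD2 KD (adjusted p = 0.0336) and 0.21 ± 0.16 in WT (adjusted p = 0.311). The SETD2 KD call for Batf3 held in 4 of 11 fits with 1 library left out (adjusted p from 0.0182 to 0.104) and was lost without SETD2 KD VE822 replicate 2, 3 or 4 or SETD2 KD untreated replicate 1, 2, 4 or 6. It was also lost with library weights (0.33, adjusted p = 0.0728), after quantile normalisation (0.39, adjusted p = 0.0834) and with muscle and fibroblast covariates (0.34, adjusted p = 0.193), the lowest adjusted p over such alternatives being 0.0139.

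Irf8 moved by less. Its values were 10.57, 10.46, 10.64, 10.65 and 10.28 in SETD2 KD VE822 libraries, against 10.13, 10.23 and 10.36 (lowest, median, highest) in SETD2 KD untreated libraries. Again replicate 5 alone of the treated libraries lay within the untreated range. In WT they were 10.23, 10.44 and 10.85 with VE822 and 10.19, 10.29 and 10.49 untreated. The difference was 0.29 ± 0.09 in SETD2 KD (adjusted p = 0.0285) and 0.13 ± 0.09 in WT (adjusted p = 0.237). The first was lost without SETD2 KD VE822 replicate 1, 3 or 4 or SETD2 KD untreated replicate 1 or 4 (adjusted p from 0.0135 to 0.0728 over 11). It was also lost with library weights (0.21, adjusted p = 0.0536) and with muscle and fibroblast covariates (0.23, adjusted p = 0.128), the lowest over such alternatives being 0.00257. The WT difference passed only after the median of each chromosome was removed (0.26, adjusted p = 0.0282, the highest over its alternatives being 0.812).

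Zbtb46 did not pass under either label in the reported model. Its values were 6.23, 6.05, 6.12, 7.14 and 6.36 in SETD2 KD VE822 libraries, against 5.88, 6.17 and 6.31 in SETD2 KD untreated libraries. A single treated library, replicate 4, stood at 7.14, and the other 4, from 6.05 to 6.36, lay within the untreated range or just above it. In WT it was 5.71, 6.38 and 6.78 with VE822 and 5.59, 5.87 and 6.32 untreated. The difference was 0.24 ± 0.19 (adjusted p = 0.398) in SETD2 KD and 0.39 ± 0.17 (adjusted p = 0.0806) in WT, with approximate 95% intervals of -0.13 to 0.61 and 0.055 to 0.73. The WT difference passed with library weights (0.50, adjusted p = 0.0082) and after the median of each chromosome was removed (0.44, adjusted p = 0.0388). It also passed with endothelium and adipocyte covariates (0.31, adjusted p = 0.00593), an alternative chosen after seeing the data. The highest adjusted p over all such alternatives was 0.66. Leaving out WT VE822 replicate 3 or 6 or WT untreated replicate 1 let it pass too (adjusted p from 0.0206 to 0.202 over 13).

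Clec9a, a receptor by which cDC1 recognise dead cells, separated the SETD2 KD groups. It stood at 3.68, 3.69, 3.92, 3.80 and 3.42 in SETD2 KD VE822 libraries, against 2.95, 3.03 and 3.14 (lowest, median, highest) in SETD2 KD untreated libraries. Every treated library was above every untreated one, which held for 5.3% of all genes in that direction. In WT the values were 3.17, 3.33 and 4.31 with VE822 and 2.95, 3.03 and 3.56 untreated, with the highest again in WT VE822 replicates 5 and 4. The difference was 0.65 ± 0.15 in SETD2 KD, or 1.57-fold (adjusted p = 0.00321), and 0.39 ± 0.14 in WT (adjusted p = 0.0316). The SETD2 KD call held in all 11 fits with 1 library left out (adjusted p from 0.003 to 0.0118). The WT call held in 7 of 13 (0.0115 to 0.0920), being lost without WT VE822 replicate 4 or 5 or WT untreated replicate 3, 5, 6 or 7. After the median of each chromosome was removed the WT difference was 0.17 (adjusted p = 0.368, the highest of its other alternatives, the lowest being 0.00216). Without the libraries high in endothelial genes it was 0.20 (adjusted p = 0.0461). The WT call was also lost with only the groups compared (adjusted p = 0.0822), after quantile normalisation (0.0844) and with muscle and fibroblast covariates (0.0942).

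Itgae encodes the integrin chain CD103, found on migratory cDC1 and on resident CD8 T cells. Its values were 6.92, 6.47, 6.68, 6.81 and 6.50 in SETD2 KD VE822 libraries, against 5.30, 5.86 and 6.16 in SETD2 KD untreated libraries. The ranges did not overlap. In WT libraries it was 5.82, 6.39 and 7.11 with VE822 and 5.31, 5.79 and 6.53 untreated, and only replicates 4 and 5 of the treated libraries exceeded the highest untreated value. The difference was 0.87 ± 0.21 in SETD2 KD, or 1.83-fold (adjusted p = 0.00473), and 0.67 ± 0.20 in WT, or 1.60-fold (adjusted p = 0.0105). Both calls held whichever library was left out. The WT call was lost when the libraries high in muscle genes were left out (0.61, adjusted p = 0.0854) and with muscle and fibroblast levels as covariates (0.42, adjusted p = 0.192), the lowest adjusted p over its alternatives being 0.00193. T cell genes moved alongside: 11 of 12 rose under each label, where 10.6% of all genes rose in SETD2 KD and 17.2% in WT. The mean rlog of the T cell genes ranged from 5.68 to 6.49 in SETD2 KD VE822 libraries and from 4.97 to 5.25 in SETD2 KD untreated libraries. In WT libraries it ranged from 5.26 to 6.56 with VE822 and from 4.90 to 5.50 untreated. Every gene of that list passed the filter, and the part of T cells in the Itgae result was not tested.

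Itgax, which encodes the integrin chain CD11c of dendritic cells and many tumour macrophages, had the largest WT difference of the 10 genes. It stood at 9.52, 10.20, 9.72, 10.47 and 9.87 in SETD2 KD VE822 libraries, against 8.70, 9.18 and 9.52 in SETD2 KD untreated libraries. The ranges touch, with the lowest treated library just below the highest untreated one. In WT it was 9.47, 9.77 and 10.39 with VE822 and 8.20, 8.92 and 9.43 untreated. Here the groups did not overlap, as for 6.25% of all genes in that direction. The difference was 0.79 ± 0.19 in SETD2 KD, or 1.73-fold (adjusted p = 0.0043), and 0.95 ± 0.18 in WT, or 1.94-fold (adjusted p = 0.00023). Both held in every alternative run and with each library left out, with adjusted p up to 0.0355 and 0.00761. Of 12 macrophage genes 1 rose (Fcgr1 in SETD2 KD, Mertk in WT) and 3 fell (Cd163, Mrc1 and Cd68) under each label. Of all genes, 10.6% rose and 11.6% fell in SETD2 KD, and 17.2% rose and 17.5% fell in WT. The macrophage list's mean was 12.30 ± 0.14 and 12.36 ± 0.29 in SETD2 KD VE822 and WT VE822 libraries. It was 12.41 ± 0.09 and 12.43 ± 0.15 in SETD2 KD untreated and WT untreated libraries (SD). The part of macrophages in the Itgax result was not tested.

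Siglech, a lectin of plasmacytoid dendritic cells, was low throughout. It was at 3.12, 3.27, 3.0, 3.75 and 3.37 in SETD2 KD VE822 libraries, against 2.87, 2.93 and 3.11 in SETD2 KD untreated libraries. In WT it was 2.84, 3.27 and 4.71 with VE822 and 2.85, 3.01 and 3.34 untreated. WT VE822 replicates 4 and 5, at 4.53 and 4.71, carried the upper part of that range, and the lowest of all 24 values was also in a WT VE822 library. The difference was 0.35 ± 0.24 (adjusted p = 0.317) in SETD2 KD and 0.61 ± 0.22 (adjusted p = 0.0344) in WT. The WT call was lost without WT VE822 replicate 4 or 5 or WT untreated replicate 3, 5 or 7 (adjusted p from 0.00783 to 0.112 over 13). Without the libraries high in endothelial genes the differences were 0.24 in SETD2 KD (adjusted p = 0.0351) and 0.16 in WT (adjusted p = 0.144), so that the calls changed places, with adjusted p over all other alternatives from 0.0351 to 0.956 in SETD2 KD and from 0.00165 to 0.314 in WT. With only the groups compared they changed places too (adjusted p = 0.0433 in SETD2 KD and 0.089 in WT). The WT call was also lost after quantile normalisation (0.0556), without the libraries high in muscle genes (0.130) and with muscle and fibroblast covariates (0.314).

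Cd209a, a C-type lectin of monocyte-derived dendritic cells and cDC2, did not pass. Its values were 6.04, 6.52, 6.09, 7.86 and 7.20 in SETD2 KD VE822 libraries, against 5.55, 6.62 and 6.93 in SETD2 KD untreated libraries. In WT they were 5.73, 6.37 and 7.29 with VE822 and 5.52, 5.89 and 6.47 untreated. The groups overlapped under both labels, and the spread was among the widest of the 10 genes. The difference was 0.36 ± 0.31 (adjusted p = 0.452) in SETD2 KD and 0.47 ± 0.29 (adjusted p = 0.215) in WT, with approximate 95% intervals of -0.25 to 0.97 and -0.094 to 1.03.

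Fscn1 encodes the actin bundler fascin, which mature dendritic cells use in their dendrites. It was at 11.27, 11.35, 11.46, 11.49 and 11.49 in SETD2 KD VE822 libraries, against 11.46, 11.53 and 11.70 in SETD2 KD untreated libraries. It was the only member whose mean was lower with VE822, in SETD2 KD, by -0.14 ± 0.10 (adjusted p = 0.351). In WT it was 11.25, 11.63 and 12.09 with VE822 and 11.28, 11.44 and 11.68 untreated, a difference of 0.19 ± 0.09 (adjusted p = 0.126). Neither passed in the reported model, and the WT difference passed with library weights (0.24, adjusted p = 0.0340, the lowest of its other alternatives, the highest being 0.903) and without WT VE822 replicate 3 (adjusted p = 0.0173).

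**Figure D2:**
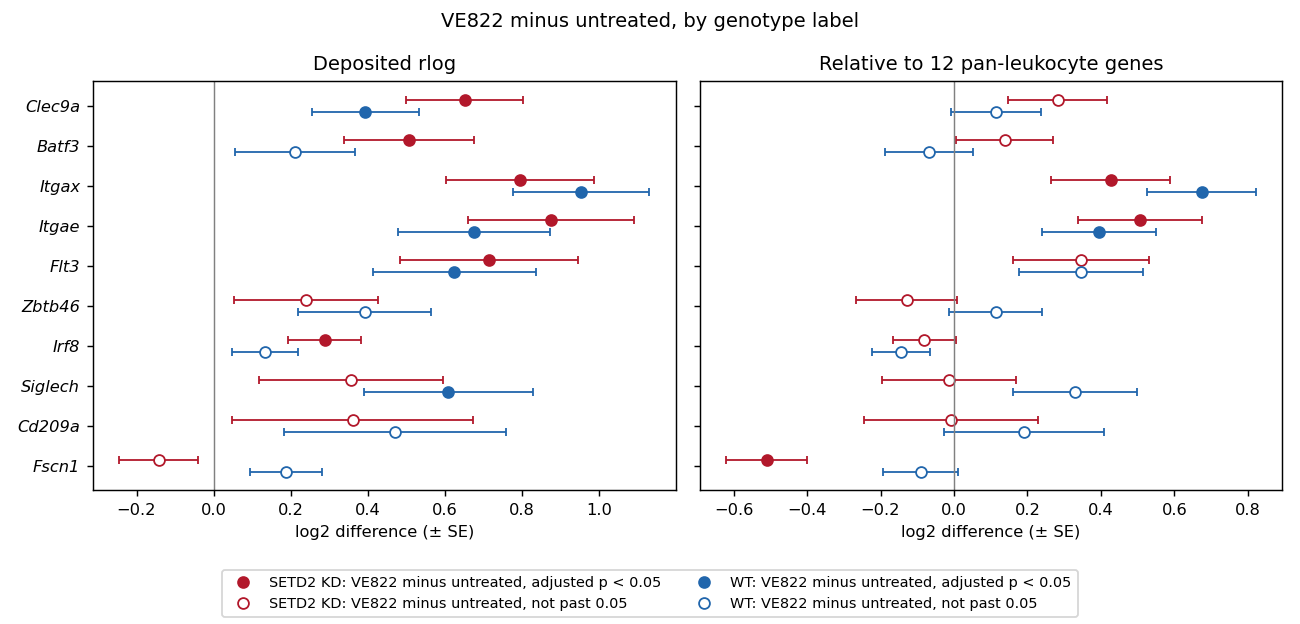
Log2 difference, VE822 minus untreated, with its SE, for the 10 genes in SETD2 KD (red) and WT tumours (blue), on the deposited scale (left) and after the mean of 12 pan-leukocyte genes was subtracted in each library (right); filled points have adjusted p below 0.05. Itgax and Itgae are the genes filled on both scales under both labels, and Fscn1 lies at -0.51 in SETD2 KD on the right.

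Between genotype labels no member passed. In untreated tumours, SETD2 KD against WT gave log2 differences from -0.13 (Batf3) to 0.41 (Cd209a) and a median of -0.013. No gene of the 15916 passed (0.0% called), while 512 had an unadjusted p below 0.05, none of them a member. Under VE822, SETD2 KD against WT gave differences from -0.33 (Siglech) to 0.30 (Cd209a), and 0.0126% of all genes (2) passed, with 2031 at an unadjusted p below 0.05, among them Fscn1 (-0.25 ± 0.10, adjusted p = 0.335). The interaction, the VE822 difference in SETD2 KD minus that in WT, was called for no gene (0.0%), with 1452 at an unadjusted p below 0.05, Fscn1 being the 1 member among them. For Fscn1 it was -0.33 ± 0.14 (adjusted p = 0.513), for Batf3 0.30 ± 0.23, for Clec9a 0.26 ± 0.21 and for Siglech -0.25 ± 0.32. The approximate 95% intervals for these 4 were -0.60 to -0.058, -0.16 to 0.75, -0.15 to 0.66 and -0.89 to 0.38. These contrasts share libraries with the VE822 contrasts. That Batf3 and Irf8 passed in SETD2 KD alone and Siglech in WT alone is therefore not shown to be a difference between the labels. Mean levels were highest in SETD2 KD VE822 for every gene other than Siglech and Fscn1, which were highest in WT VE822, and neighbouring groups in the order of means overlapped in range for all 10 genes.

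Of 12 pan-leukocyte genes, 6 rose with VE822 in SETD2 KD and 7 in WT, and none fell. Of all genes, 10.6% rose in SETD2 KD and 17.2% in WT. Leukocyte lists differed, with SETD2 KD and WT medians of 1.13 and 0.84 for T cell genes. The medians were -0.016 and -0.024 for macrophage genes, and -0.17 and -0.085 for neutrophil genes. The mean rlog of the pan-leukocyte genes was 11.05 ± 0.16 in SETD2 KD VE822 and 10.69 ± 0.12 in SETD2 KD untreated libraries (SD). It was 11.04 ± 0.20 in WT VE822 and 10.76 ± 0.13 in WT untreated libraries. When this mean was subtracted in each library, Itgae and Itgax still rose under both labels. In SETD2 KD the difference was 0.51 ± 0.17 for Itgae (adjusted p = 0.0117) and 0.43 ± 0.16 for Itgax (adjusted p = 0.0226), on a scale where 2.15% of all genes rose and 66.0% fell. In WT it was 0.40 ± 0.16 for Itgae (adjusted p = 0.0347) and 0.67 ± 0.15 for Itgax (adjusted p = 0.000652), where 3.56% of all genes rose and 48.7% fell. The median of all genes on this scale was -0.36 in SETD2 KD and -0.27 in WT. Fscn1 fell on it in SETD2 KD, by -0.51 ± 0.11 (adjusted p = 0.000588), beside that median of -0.36.

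On that leukocyte-relative scale the other members did not pass. Flt3 had the same difference, 0.35, under both labels, with adjusted p of 0.0949 in SETD2 KD and 0.0855 in WT. Clec9a was at 0.28 ± 0.13 in SETD2 KD (adjusted p = 0.0627) and 0.11 ± 0.12 in WT, Batf3 at 0.14 and -0.068, and Irf8 at -0.081 and -0.14. With Ptprc alone in place of the 12 genes, the calls for Itgae under both labels and for Itgax in SETD2 KD were lost (adjusted p of 0.233, 0.154 and 0.368), that for Itgax in WT held, and Zbtb46 was lower in SETD2 KD (-0.38, adjusted p = 0.0337, against 0.402 with the 12 genes). The Itgax call in SETD2 KD was also lost without SETD2 KD VE822 replicate 2 or 4 or SETD2 KD untreated replicate 1 or 6 (adjusted p up to 0.0649). That for Itgae in WT was lost without WT VE822 replicate 4, 5 or 6 or WT untreated replicate 3, 5 or 6 (up to 0.108).

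Within groups many pairs of the 10 genes varied together. Deviations from the group means were correlated over the 24 libraries. By Pearson's r, 29 of the 45 pairs passed at an adjusted p of 0.05 by permutation within groups, all with positive r. The share of pairs of other genes that would pass was not measured. The count is therefore not shown to be particular to these genes. Over all pairs Pearson's r ran from 0.25 to 0.83 with a median of 0.59. By Pearson's r Siglech passed with each of the other 9 genes, Itgae with 8, Batf3 and Zbtb46 with 7, and Fscn1, Clec9a and Itgax with 4 each. By Spearman's rho Siglech did not pass with Batf3 (adjusted p = 0.1005), Itgae (0.05255) or Irf8 (0.07566). Without the libraries high in muscle genes, Siglech passed by Pearson's r with Batf3, Flt3 and Zbtb46 only. Flt3 and Siglech were the closest pair (r = 0.83, adjusted p = 0.00657; Spearman's rho = 0.69, adjusted p = 0.0219), with r = 0.71 after the 2 libraries farthest from the median of Flt3 were left out. Clec9a and Irf8, both cDC1 genes, had r = 0.79 (adjusted p = 0.00615; rho = 0.71, adjusted p = 0.0144) and 0.66 without 2 libraries. Clec9a and Siglech, markers of cDC1 and plasmacytoid cells, were as close (r = 0.79, adjusted p = 0.00973; rho = 0.66, adjusted p = 0.0338), with 0.66 without 2 libraries. Clec9a and Cd209a had r = 0.37 (adjusted p = 0.116; rho = 0.30, adjusted p = 0.196) and 0.075 without 2 libraries. All 29 pairs remained positive without 2 libraries. Among the 20 libraries not high in muscle genes, 17 pairs passed.

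**Figure D3:**
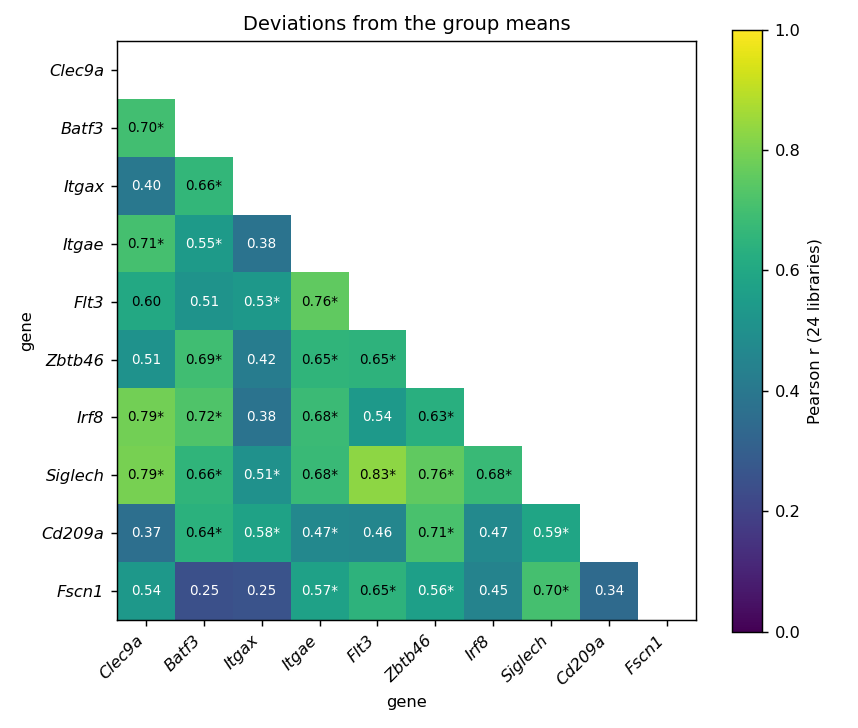
Pearson r between pairs of the 10 genes over 24 libraries, after each group's mean was removed from its libraries (colour and printed value; an asterisk marks an adjusted p below 0.05 over the 45 pairs). All 45 values are positive, from 0.25 to 0.83, and Siglech carries an asterisk with every other gene. By Spearman's rho, Siglech did not pass with Batf3, Itgae or Irf8.

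The same deviations were set beside the mean levels of 4 cell type lists, a choice made after the data were seen, and 21 of the 40 relations passed, all positive. Here too the share for other genes was not measured. Clec9a followed the T cell genes (r = 0.86, adjusted p = 0.0016; rho = 0.71, adjusted p = 0.0046; r = 0.74 without 2 libraries), as did Irf8 (r = 0.79, adjusted p = 0.00273; rho = 0.62) and Itgae (r = 0.65, adjusted p = 0.0107; rho = 0.57). Cd209a had r = 0.066 with T cell genes (adjusted p = 0.795) and followed the pan-leukocyte genes (r = 0.82, adjusted p = 0.0016; rho = 0.83; 0.76 without 2 libraries). Zbtb46 followed the endothelial genes (r = 0.84, adjusted p = 0.00176; rho = 0.78, adjusted p = 0.0014; 0.81 without 2 libraries), as did Siglech (r = 0.75, rho = 0.71) and Cd209a (r = 0.75, rho = 0.67). Batf3 also passed with the T cell genes (r = 0.60), and Batf3 (0.66), Flt3 (0.62) and Itgae (0.50) with the endothelial genes. All members but Clec9a and Fscn1 passed with the pan-leukocyte genes, from r = 0.56 for Itgax to 0.82 for Cd209a. Of the 10 genes, Irf8, Zbtb46 and Cd209a passed with the macrophage list (r = 0.73, 0.68 and 0.55), whereas Itgax, at r = 0.26, did not. Fscn1 passed with none of the 4 lists. The share of endothelial or T cell RNA in these relations was not tested beyond these values. No endothelial gene of 8 passed in either VE822 contrast.

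Among all 15916 genes, those whose deviations were most like each member's over the 24 libraries are given by r alone. Clec9a was most like Cd7 (0.91), a gene of T, NK and some dendritic cells, and Gimap7 (0.87), a lymphocyte gene. Siglech was also most like Cd7 (0.92), followed by Bcl2l14 (0.92) and Lbh (0.86), and the genes most like Flt3 included Bcl2l14 (0.84) and Siglech (0.83). Irf8 was most like Unc93b1 (0.87), which escorts nucleic acid-sensing Toll-like receptors to endosomes, Tlr11 (0.86), another Toll-like receptor, and Mycl (0.85), a Myc family factor used by dendritic cells. Batf3 was most like Tmem229b, Bcl11a and Evl (all 0.85), Bcl11a being a factor of plasmacytoid dendritic and B cells. Itgax was most like Arhgap25 (0.86), Trerf1 (0.85) and Amz1 (0.81). Itgae was most like Sept3 (0.87), Sept6 (0.84, a septin like the first) and Hspd1-ps4 (0.84). Cd209a was most like Ptprc (0.90), the pan-leukocyte phosphatase CD45, Tbx2 (0.89) and Mest (0.88). Zbtb46 was most like H1fx (0.90), Sema6d (0.89) and Dchs1 (0.89). Fscn1 was most like Zfp369 (0.88), Dhx30 (0.78) and Zdhhc9 (0.76).

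Genes of the dendritic cell subsets, in lists that also hold some of the 10 members, moved as follows with VE822. Beside the counts of these and the other lists stand the shares of all genes tested. In SETD2 KD 10.6% rose and 11.6% fell, and in WT 17.2% rose and 17.5% fell. Of 14 cDC1 genes, 9 rose and 1 fell in SETD2 KD (median log2 difference 0.43) and 7 rose and 1 fell in WT (0.25). Among the 10 of them that are not members, 5 rose and 1 fell under each label, with medians of 0.37 and 0.25. Xcr1, the chemokine receptor that defines cDC1, rose by 0.83 ± 0.19 in SETD2 KD and 0.48 ± 0.18 in WT (adjusted p of 0.00328 and 0.0384). Ly75, the endocytic receptor DEC-205, rose by 0.80 and 1.04, and the adhesion molecule Cadm1 by 0.59 and 0.47. Cd24a, which tumour epithelium also expresses, fell by -0.81 in SETD2 KD and -0.72 in WT. Of 11 cDC2 genes tested, only Ltb rose under both labels (0.84 and 0.98), and Notch2 fell in WT (-0.42), with list medians of 0.12 in SETD2 KD and 0.10 in WT. The part of T cells in the Ltb result was not tested. Of 11 plasmacytoid genes tested, 6 rose in SETD2 KD, and 6 rose and 1 fell in WT, with medians of 0.41 and 0.40. Without the member Siglech, 6 of 10 rose in SETD2 KD, and 5 of 10 rose and 1 fell in WT. The largest was Spib, a lymphoid ETS factor, at 1.79 ± 0.38 in SETD2 KD and 2.40 ± 0.35 in WT. Its SD was 1.36 in SETD2 KD VE822 libraries, against 0.26 to 0.42 in the other groups. Cox6a2, the next in WT, was at 1.20 there and 0.50 in SETD2 KD. The part of muscle RNA in Cox6a2 was not tested, the skeletal muscle list having medians of 1.43 in WT and -0.26 in SETD2 KD. The interferon-induced Bst2 rose by 0.68 and 0.44, Pld4 by 0.61 and 0.45, and Tlr9 by 0.73 in SETD2 KD.

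Of 16 genes of mature dendritic cells tested, 3 rose and 2 fell in SETD2 KD, and 9 rose and 2 fell in WT, with medians of 0.28 and 0.39. Ccr7, the receptor that guides mature dendritic cells to lymph nodes, rose by 0.66 ± 0.18 in SETD2 KD (adjusted p = 0.00828) and 1.17 ± 0.16 in WT (adjusted p = 8.1e-06). The part of T cells in the Ccr7 result was not tested. Ccl17, a chemokine of dendritic cells that attracts T cells, rose by 1.22 ± 0.17 in WT (adjusted p = 8.86e-06), and Il4i1 by 0.58. Pdcd1lg2, which encodes PD-L2, rose by 0.67 in SETD2 KD and 0.43 in WT, and Cd83 by 0.42 and 0.39. Socs2 fell by -0.79 in SETD2 KD and -0.58 in WT. None of these genes passed in the interaction. Of 11 growth and recruitment genes tested, 5 rose in SETD2 KD and 3 in WT and none fell, with medians of 0.30 and 0.22. Xcl1, the ligand of XCR1 made by NK and T cells, rose by 0.84 ± 0.23 in SETD2 KD (adjusted p = 0.0106), Ccl5 by 0.73 in SETD2 KD and 0.86 in WT, and Csf2, which encodes GM-CSF, by 0.47 in SETD2 KD. Flt3l, which encodes the FLT3 ligand, was not analysed here.

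Genes of antigen presentation and of the cells that dendritic cells meet were higher as well. Of 10 MHC class II genes 8 rose in SETD2 KD and 9 in WT, with medians of 1.13 and 0.88. Ciita, their master regulator, rose by 1.40 ± 0.25 and 1.00 ± 0.23. Of 15 genes of cross-presentation and T cell priming tested, 6 rose in SETD2 KD, and 6 rose and 1 fell in WT, led by Cxcl9 at 2.90 ± 0.52 and 2.57 ± 0.48 and Cxcl10 at 1.63 ± 0.30 and 1.07 ± 0.28, chemokines induced by interferon-gamma. The medians of that list were 0.34 and 0.22. Of 5 NK cell genes tested 5 rose in SETD2 KD and 4 in WT (medians 0.61 and 0.49), while none of 6 neutrophil genes passed under either label. Macrophages also make MHC class II and these chemokines, and their part here was not tested.

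**Figure D4:**
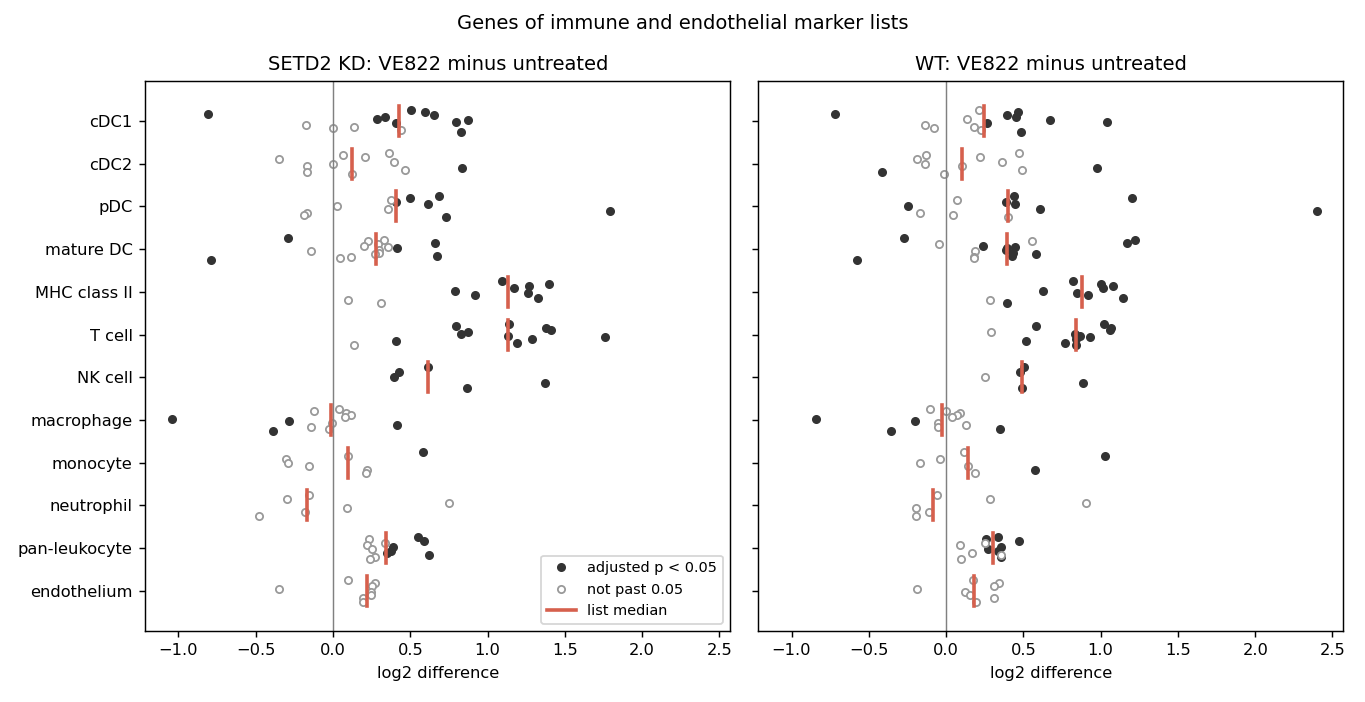
Log2 difference, VE822 minus untreated, for each tested gene of 12 marker lists in SETD2 KD (left) and WT tumours (right); filled points have adjusted p below 0.05 and the red bar is the list's median. Of these 12 lists, MHC class II and T cell lie furthest right, with medians of 1.13 and 1.13 in SETD2 KD and 0.88 and 0.84 in WT. The macrophage list is centred near 0. Among lists not drawn, SETD2 KD and WT medians were 0.73 and 1.12 (fibroblast), -0.26 and 1.43 (skeletal muscle) and 1.19 and 0.47 (adipocyte).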

How the data were processed

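RNA sequencing of 24 Renca tumour libraries was used, grouped by the genotype and treatment labels. The 4 human 786-O libraries were not used here. Per the submitters' processing notes, FastQC, TopHat, HTSeq and DESeq2 were used with GRCm38. The sources used here give neither their roles and versions nor the strandedness. The authors deposited rlog values, on the log2 scale, made over the 24 libraries together, 1 row per Ensembl gene, 16906 of 46078 being 0 throughout. Depth is unknown and counts were not recovered. The labels name no batch or pairing and do not say that each library is a separate animal, so p-values measure the spread between these libraries, which may be technical.

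Symbols and coordinates come from GENCODE vM21 (GRCm38). Genes whose mean rlog reached 3 were fitted with limma 3.58.1 in R 4.3.3 (4 group means, empirical Bayes with a trend, Benjamini-Hochberg over 15916 genes, threshold 0.05), on the deposited values and after the mean of 12 pan-leukocyte genes was subtracted. The fit was tested on simulated data. Pairs used 100000 two-sided permutations within groups (Python 3.11.15, SciPy 1.17.1). All members are named, as are up to 4 genes of each other list with the largest change past the threshold in each VE822 contrast, and the 3 genes most like each member, some of which are not reported here. The members and lists were chosen with earlier results of these data known. Alternatives changed the filter, the variance model, normalisation, covariates and libraries. A library was called high in muscle genes when its list mean lay over 1 above the median of the 24, and high in endothelial genes when over 0.5 above, the latter chosen after seeing the data. The endothelium and adipocyte covariates were also chosen after seeing the data.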

Additional observations from a re-analysis of the deposited data

Results flagged for a closer look

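In 2 of 40 sets of values (10 genes in 4 groups) 1 library stood apart from the others of its group by Dixon's 95% criterion, where chance gives about 5% of sets. Clec9a was 3.56 in WT untreated replicate 1, against 2.95 to 3.17 in the other WT untreated libraries. Zbtb46 was 7.14 in SETD2 KD VE822 replicate 4, against 6.05 to 6.36 in the other SETD2 KD VE822 libraries. Both libraries are among the 4 high in endothelial genes, with list means of 9.09 and 9.68. Without these 4 libraries the VE822 difference in WT for Clec9a was 0.20 (adjusted p = 0.0461), against 0.39 with them, and that for Zbtb46 passed under neither label.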

How the results depend on the processing

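With VE822 in SETD2 KD, 6 members rose, and 3 with muscle and fibroblast covariates (3 to 6 with 1 library left out). With VE822 in WT, 5 rose. This count was 3 at a mean rlog of at least 5, where Clec9a and Siglech were not tested, 2 with only the groups compared, 2 after quantile normalisation, 2 without the libraries high in muscle genes, 1 with muscle and fibroblast covariates and 3 without the libraries high in endothelial genes, an alternative chosen after seeing the data (2 to 7 with 1 library left out). Relative to pan-leukocyte genes in WT, 2 rose, and 1 relative to Ptprc alone or without the libraries high in muscle genes (1 to 4 with 1 left out). Of the pairs, 29 passed and 17 did so without the libraries high in muscle genes. Apart from the smaller numbers tested, the cause was not tested. No paired analysis was possible because the labels give the mouse libraries no shared replicate numbers.

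Values that changed sign were never past the threshold. For SETD2 KD untreated they were Itgae at 0.074 with library weights, 0.0054 without muscle-high libraries, 0.060 with muscle and fibroblast covariates, 0.089 without endothelial-high libraries and 0.017 with endothelium and adipocyte covariates, Flt3 at -0.0096 without muscle-high libraries and Siglech at 0.083 with muscle and fibroblast covariates. For SETD2 KD under VE822, with library weights, they were Itgae -0.0071, Batf3 -0.088, Zbtb46 -0.14, Itgax -0.063, Irf8 -0.075, Flt3 -0.13 and Clec9a -0.0074, and Siglech at 0.057 without endothelial-high libraries. For the interaction they were Itgae -0.081, Batf3 -0.013 and Flt3 -0.15 with library weights, Zbtb46 0.012 without muscle-high and Siglech 0.079 without endothelial-high libraries. Batf3 relative to Ptprc in SETD2 KD was -0.12. With 1 library left out the sign also turned for Itgae (-0.11 to 0.089) and Flt3 (-0.065 to 0.067) in SETD2 KD untreated, for Flt3 (-0.066 to 0.29), Irf8 (-0.0033 to 0.12), Itgax (-0.012 to 0.23) and Zbtb46 (-0.13 to 0.15) in SETD2 KD under VE822, for Cd209a (-0.39 to 0.067) and Flt3 (-0.067 to 0.29) in the interaction, and relative to pan-leukocyte genes for Cd209a (-0.22 to 0.14) and Siglech (-0.059 to 0.052) in SETD2 KD and Clec9a (-0.0088 to 0.17) in WT.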

Other observations

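Outside the leukocytes, the tumour epithelial list mostly fell with VE822: 5 of 8 genes fell and 2 rose in SETD2 KD, and 6 fell and 1 rose in WT. Of all genes tested, 11.6% fell and 10.6% rose in SETD2 KD, and 17.5% fell and 17.2% rose in WT. Krt18 was lower by 0.91 ± 0.06 in SETD2 KD and 0.84 ± 0.06 in WT, whereas the adhesion molecule Epcam rose by 1.00 ± 0.20 and 1.31 ± 0.18. The mast cell tryptase gene Tpsb2 rose by 1.65 ± 0.29 and 1.13 ± 0.27. The monocyte and macrophage gene Chil3 rose by 1.03 ± 0.37 in WT, and Cd163, a scavenger receptor of tissue macrophages, fell by 1.04 ± 0.22 in SETD2 KD and by 0.84 ± 0.20 in WT. Of 8 fibroblast genes 5 rose in WT and none passed in SETD2 KD, a difference that was not called for any of them in the interaction. Of 10 skeletal muscle genes 3 rose in WT, where 17.2% of all genes did, and 3 of the 4 libraries high in muscle genes were WT VE822.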
